A study of Homo sapiens with 8 samples.

Results

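The host genes described here encode proteins of the mitochondrial ribosome. They were chosen by symbol: a small open reading frame (smORF) belongs to the group when a gene name given for it in the annotation table begins with MRPL or MRPS followed by a number. This rule found 27 host genes with 95 smORFs, of 7369 named host genes and 24199 smORFs in all. There were 17 host genes of the large subunit (MRPL) and 10 of the small subunit (MRPS). The measured value is the number of ribosome footprints, the short RNA pieces that a ribosome shields from nuclease, that fell on each smORF. The smORFs lie outside the known coding regions, so these counts do not measure the translation of the mitochondrial ribosomal proteins themselves.

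Mitochondria have their own ribosomes, which translate the few messages of the mitochondrial genome, nearly all of them for subunits of the respiratory chain. The proteins of these ribosomes are encoded in the nucleus, made by cytosolic ribosomes and imported. Some have a counterpart in the bacterial ribosome and others exist only in mitochondria. In the intestine, mitochondrial respiration supplies the absorptive cells that line the villi with energy. An upstream open reading frame (uORF) lies before the main coding sequence of a messenger RNA and is known to lower the number of ribosomes that reach it in many genes. A downstream open reading frame (dORF) lies after the main coding sequence.

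The libraries came from Caco-2, an established human colon adenocarcinoma line that turns into enterocyte-like cells when it is kept confluent. The 4 groups had 2 libraries each. The first group was undifferentiated Caco-2, and the second was differentiated Caco-2 with no further treatment (differentiated control). The third was differentiated Caco-2 given micelles without lipid, labelled as taurocholate, and the fourth differentiated Caco-2 given lipid micelles with BSA, oleic acid and cholesterol. The labels give no dose or duration for the micelles. All cells received cycloheximide before lysis, which holds ribosomes in place. Nothing in the labels says that replicates were separate cultures, so p-values measure only the spread between these libraries.

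Between 506382 and 884711 footprints were assigned to smORFs in each library, and the member smORFs took 2121 to 3627 of them. The floor of 3 counts was 7.47 to 12.8 CPM (counts scaled to the normalized size of the library) in the table of host genes and 3.49 to 5.86 CPM in the table of smORFs. Differentiation moved cell state markers. The 3 proliferation markers with a smORF (MKI67, TOP2A and CDK1) summed to 2223 and 3029 CPM in the undifferentiated libraries and to 94.0 to 163 CPM in the other 6. The 6 enterocyte markers with a smORF summed to 3062 and 3781 CPM before and to 6945 to 11959 CPM after differentiation. Of the 5 that could be tested, FABP1, APOA4 and APOB rose in the differentiated controls, APOA1 fell (log2 fold change -1.32 ± 0.36, edgeR adjusted p = 0.00927) and CDH17 was not called. The 3 epithelial markers with a smORF summed to 67.3 and 80.3 CPM before and to 384 to 489 CPM after it. None of the 3 goblet cell markers had a smORF. The 2 leukocyte markers with a smORF were at 0 in each library, and the only fibroblast marker, COL1A2, held 1 count in 1 library. The part of the change in cell state in the results on the mitochondrial ribosome host genes was not tested.

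The member smORFs were short and mostly upstream. Of the 95, 68 were uORFs, 22 dORFs and 5 lay on non-coding transcripts. The share of dORFs was 23.2%, against 6.60% over all smORFs. The median length was 21 codons, against 31 over all smORFs, and the range was 6 to 120. An ATG start codon opened 32 of the 95 (33.7%, against 43.4% over all smORFs). The median RibORF score, which grades how evenly footprints follow the 3-base step of translation, was 0.902 against 0.876. No member had a mean PhyloCSF score above 0, the score that measures protein-like conservation, whereas 424 of all smORFs (1.75%) did. The 95 smORFs formed 49 groups that share no exon base. MRPL55 alone held 23 overlapping uORFs, MRPL48 8 and MRPL51 8, so the smORFs of a host gene are not independent.

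Short uORFs of 6 large-subunit host genes are shown first, because several have like start sites. They were chosen after their counts were seen and are not all of the uORFs with most footprints. Each sequence is the transcript in hg38 on the gene's own strand, with up to 12 bases before the start codon, the start codon in capitals and 15 bases after it.
MRPL51 IEC_13172: gttgcggATGgggcgtaggtgggcg
MRPL51 IEC_13171: gtaaggcccaagATGgctgtcttcgcctta
MRPL11 IEC_14896: ctctggcccaagATGgtggcgcccagagct
MRPL20 IEC_15935: gacccgggcaagATGgcagcggcgctgcgc
MRPL37 IEC_02604: gcgcgcggcaacATGgcggggtccaggtgg
MRPL18 IEC_03547: ccctgactttatATGgctgctcctggcgag
MRPL12 IEC_02531: tttccggctcgaATGcccggcagccgtggc
MRPL12 IEC_02532: tccccagctcgaATGcccggcggccgaggc
The MRPL51 uORFs lie in its 5′ UTR on the minus strand of chromosome 12, IEC_13172 at chr12:6493250-6493288 (13 codons) and IEC_13171 at chr12:6493212-6493238 (9 codons). IEC_14896 of MRPL11 lies at chr11:66438786-66438821 on the minus strand (12 codons), and IEC_15935 of MRPL20 at chr1:1407249-1407275 on the minus strand (9 codons). IEC_02604 of MRPL37 lies at chr1:54200202-54200225 on the plus strand (8 codons) and IEC_03547 of MRPL18 at chr6:159790514-159790546 on the plus strand (11 codons). The MRPL12 uORFs are at chr17:81703383-81703403 and chr17:81703427-81703447 on the plus strand, with 7 codons each. All lie in 5′ UTR exons of the GENCODE 44 annotation. The pair of MRPL12 exons also belongs to a second annotated gene on the same strand.

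The start of MRPL51 IEC_13171, MRPL11 IEC_14896 and MRPL20 IEC_15935 shares the 7 letters AAGATGG. These letters stood around 3 of the 32 ATG starts of members (9.38%) and around 178 of 9521 ATG starts over all smORFs placed on a transcript (1.87%). The letters were taken from these 3 member starts, so the member share was fixed by that choice and does not measure an enrichment. Of the 32 ATG starts, 22 had a purine 3 bases before the codon (68.8%, against 57.9% over all smORFs), 13 had a G just after it (40.6% against 34.9%) and 9 had both (28.1% against 20.9%). Both bases are known to favour initiation. Among 55 other member starts placed on a transcript, 21 lay within its first 3 bases (38.2%, against 41.8% over all smORFs). A stop codon followed 81 of 87 placed member smORFs (93.1%, against 97.4% over all smORFs). MRPL51 IEC_13172, printed above, had none on its annotated transcript. The uORFs ended a median of 55 bases before the main start codon, with a range of 6 to 899 over 45 uORFs, IEC_13172 among them.

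The dORFs of MRPS26 are shown because they carried the largest rise among the members. Capitals mark the start codon as before.
MRPS26 IEC_04356: ccgccagggaccATGtatgtatcatggcgg
MRPS26 IEC_04357: catgtatgtatcATGgcggaagagttggcc
MRPS26 IEC_04358: ttaagagtagtgATGggaagattacagtct
They lie in the 3′ UTR of MRPS26 on the plus strand of chromosome 20. IEC_04356 (10 codons) is at chr20:3047902-3047931, IEC_04357 (94 codons) at chr20:3047913-3048194 and IEC_04358 (24 codons) at chr20:3048178-3048249. Their start codons stand 32, 43 and 308 bases after the main stop codon. The 3 share bases, so a footprint can count for more than 1 of them. IEC_04357 and IEC_04358 are annotated as overlapping a repeat element and IEC_04356 is not. How reads that map to several places were counted is not given in the sources used here. On the annotated transcript IEC_04358 has no stop codon at its end.

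Levels were compared between genes only as CPM per kb of smORF, with 1 smORF (the longest) counted per group of overlapping smORFs. In the large subunit the highest means over the 8 libraries were those of MRPL11 (5002 CPM per kb), MRPL30 (4936), MRPL37 (3825), MRPL51 (2431) and MRPL48 (1395). MRPL11 sits at the base of the stalk that contacts the translation factors. MRPL30 varied widely between the undifferentiated libraries (6634 ± 3059 CPM per kb, SD, n = 2), and MRPL11 (7334 ± 330) lay within that spread. The differentiated controls gave 5277 ± 352 for MRPL11, 4426 ± 774 for MRPL30 and 4506 ± 912 for MRPL37, so the order of these 3 was not separated beyond the spread. These 3 values rest on very short smORFs. The counted smORF has 24 bases in MRPL37 and 42 in MRPL30, and 980 of 1003 MRPL11 counts fell on a uORF of 36 bases. Division by so short a length can raise a value, and how far the ranking depends on length was not tested. In the small subunit the highest were MRPS26 (2343 CPM per kb), MRPS6 (1342), MRPS12 (648), MRPS16 (342) and MRPS24 (261). MRPS5 was next to MRPS24 at 261 CPM per kb. Of the 893 counts of MRPS6, 116 fell on IEC_04402, its only smORF in an MRPS6 exon. The rest fell on smORFs in exons of SLC5A3, and all smORFs listed under MRPS5 lie in exons of ZNF514. The levels given for MRPS6 and MRPS5 are thus largely or wholly those of footprints in other genes. These means cover 6 differentiated and 2 undifferentiated libraries, and the order depended on the group. In undifferentiated cells MRPS12 was highest in the small subunit (1201 ± 63 CPM per kb), ahead of MRPS6 (477 ± 48), MRPS16 (407 ± 131), MRPS21 (287 ± 17) and MRPS26 (190 ± 21). The lowest member was MRPS25 at 49.0 CPM per kb, with 0 to 2 counts in a library.

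Differentiated control and undifferentiated cells were compared first. Footprints on smORFs of 3 small-subunit host genes (MRPS26, MRPS6 and MRPS5) rose, and those of 5 large-subunit host genes (MRPL13, MRPL12, MRPL4, MRPL18 and MRPL51) and of MRPS12 fell. MRPS26 rose 16.5-fold and MRPL13 fell 24.2-fold, whereas the other 7 changed by 2.10-fold to 4.55-fold. These 9 were called of 19 member host genes with enough counts to be tested, in edgeR's quasi-likelihood test. A call required a Benjamini-Hochberg adjusted p below 0.05 and a log2 fold change of 1 or more in either direction. Over all 4830 host genes tested, 34.2% were called, 18.4% as higher and 15.8% as lower. The median log2 fold change of the 19 was -0.48, against 0.03 over all host genes tested, and 6 of the 19 lay above 0. With at least 10 counts required in every library it was -0.13 over 13 members. At an unadjusted p under 0.05, 10 members passed, the 9 called and MRPL11, beside 2344 of all 4830 host genes tested. DESeq2 called 7, of which 2 were higher and 5 lower. In such bulk counts a change in the cells that express a gene and a change in RNA per cell cannot be told apart, nor can RNA level and ribosomes per RNA, as no RNA counts were used here.

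**Figure D1:**
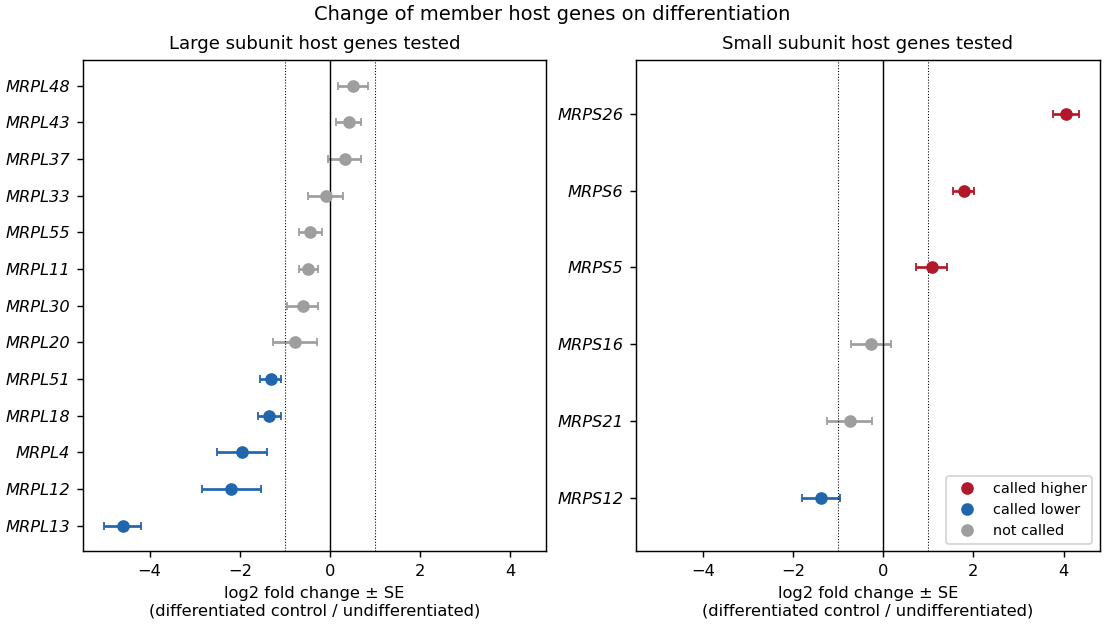
Each point is the log2 fold change (x axis) of a tested member host gene from undifferentiated to differentiated control cells, with its SE as a bar, large subunit on the left and small subunit on the right. Dotted lines mark 1 and -1. The 5 called large-subunit genes all lie on the lower side, and MRPS26 stands farthest to the right at 4.05.

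MRPS26, a small-subunit protein found only in mitochondrial ribosomes, held 18 and 14 counts in the undifferentiated libraries, 203 and 329 in the differentiated controls, 261 and 265 with micelles without lipid and 220 and 359 with lipid micelles. Its 6 differentiated libraries (696 to 1022 CPM) lay far above the undifferentiated pair (57.8 and 49.6 CPM). The log2 fold change was 4.05 ± 0.29 (SE, edgeR adjusted p = 1.46e-07), and the call held under each of 21 alternatives. The smORF counted for MRPS26, IEC_04357, is annotated as overlapping a repeat element. None of the alternatives left out such smORFs. Its share of all member counts was 1.18% and 1.03% in the undifferentiated libraries (95% Wilson intervals 0.746 to 1.85% and 0.614 to 1.72%, counting error only). In the differentiated controls that share was 21.4% and 23.9% (intervals 18.9 to 24.2% and 21.7 to 26.2%).

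MRPS6, which has a bacterial counterpart, held 42 and 33 counts in the undifferentiated libraries and 99 and 160 in the differentiated controls. The other 4 differentiated libraries held 118, 152, 125 and 164, and no differentiated library overlapped the undifferentiated pair in CPM. The log2 fold change was 1.79 ± 0.23 (edgeR adjusted p = 3.67e-05). The 3 uORFs listed under MRPS6 share no exon base with MRPS6 in GENCODE 44 and lie in 5′ UTR exons of SLC5A3, a myo-inositol transporter gene at the same locus whose symbol the annotation table also gives for them. The dORF IEC_04402, which lies in exons of both genes, held 17 and 10 counts in the undifferentiated libraries and 8 and 18 in the differentiated controls. With smORFs outside the exons of their own host gene left out, MRPS6 had a log2 fold change of -0.05 ± 0.44 and was not called. The smORFs that rose under the name MRPS6 thus lay in SLC5A3 exons.

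MRPS5, another protein with a bacterial counterpart, held 19 and 14 counts in the undifferentiated libraries, 28 and 41 in the differentiated controls, 27 and 29 with micelles without lipid and 24 and 23 with lipid micelles. In CPM the lowest lipid micelle library (57.3) lay within the undifferentiated range of 49.6 to 61.0. The log2 fold change of 1.07 ± 0.34 (edgeR adjusted p = 0.0217) was lost in DESeq2 (adjusted p = 0.123) and without any 1 of the 4 libraries compared. All 3 smORFs listed under MRPS5 lie in exons of ZNF514, a zinc finger gene, and none in exons of MRPS5. Without MRPS5 and MRPS6 the other 17 tested members gave 1 higher call and 6 lower calls, with a median log2 fold change of -0.60.

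MRPL13 showed the steepest fall. This large-subunit protein has a bacterial counterpart, and its host gene holds 1 uORF of 22 codons in the 5′ UTR, IEC_14712. It held 78 and 73 counts in the undifferentiated libraries, 2 and 4 in the differentiated controls, 6 and 7 with micelles without lipid and 2 and 2 with lipid micelles. The undifferentiated pair stood at 251 and 259 CPM, and no other library exceeded 23.5 CPM. The log2 fold change was -4.60 ± 0.42 (edgeR adjusted p = 1.46e-06), and the call held under each of 21 alternatives.

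MRPL51, a protein of the large subunit known only from mitochondrial ribosomes, was the member with most counts. It held 594 and 558 counts in the undifferentiated libraries, 182 and 279 in the differentiated controls, 189 and 220 with micelles without lipid and 217 and 403 with lipid micelles. The undifferentiated pair (1909 and 1977 CPM) lay above the other 6 libraries (644 to 1003 CPM). The log2 fold change was -1.32 ± 0.24 (edgeR adjusted p = 6.16e-04) and was called under each of 22 alternatives. MRPL51 made up 594 of 1530 and 558 of 1361 member counts before differentiation (95% Wilson intervals 36.4 to 41.3% and 38.4 to 43.6%), and 19.2% and 20.2% in the differentiated controls (16.8 to 21.9% and 18.2 to 22.4%).

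MRPL18, a large-subunit protein with a bacterial counterpart, held 128 and 113 counts in the undifferentiated libraries and 41 and 52 in the differentiated controls. The other 4 differentiated libraries held 47, 71, 40 and 78, and in CPM all 6 (127 to 208) lay below the undifferentiated pair (411 and 400). The log2 fold change was -1.35 ± 0.26 (edgeR adjusted p = 9.40e-04), called under each of 22 alternatives.

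The other 3 falls rested on fewer counts. MRPL12, the stalk protein that is also known to bind the mitochondrial RNA polymerase, held 15 and 23 counts in the undifferentiated libraries and 6 and 2 in the differentiated controls (-2.19 ± 0.66, edgeR adjusted p = 0.0171). MRPL4, whose bacterial counterpart lines the exit tunnel of the nascent chain, held 15 and 25 against 6 and 4 (-1.95 ± 0.56, edgeR adjusted p = 0.0126). MRPS12, a protein of the decoding site, held 57 and 48 against 21 and 18 (-1.38 ± 0.42, edgeR adjusted p = 0.0180). Each lost its call without control replicate 2, with log2 fold changes of -1.32, -1.40 and -0.98, and without undifferentiated replicate 2 (-1.78, -1.47 and -1.45). MRPS12 also lost it without undifferentiated replicate 1 (-1.33), and MRPL4 in DESeq2 (adjusted p = 0.0629 there).

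**Figure D2:**
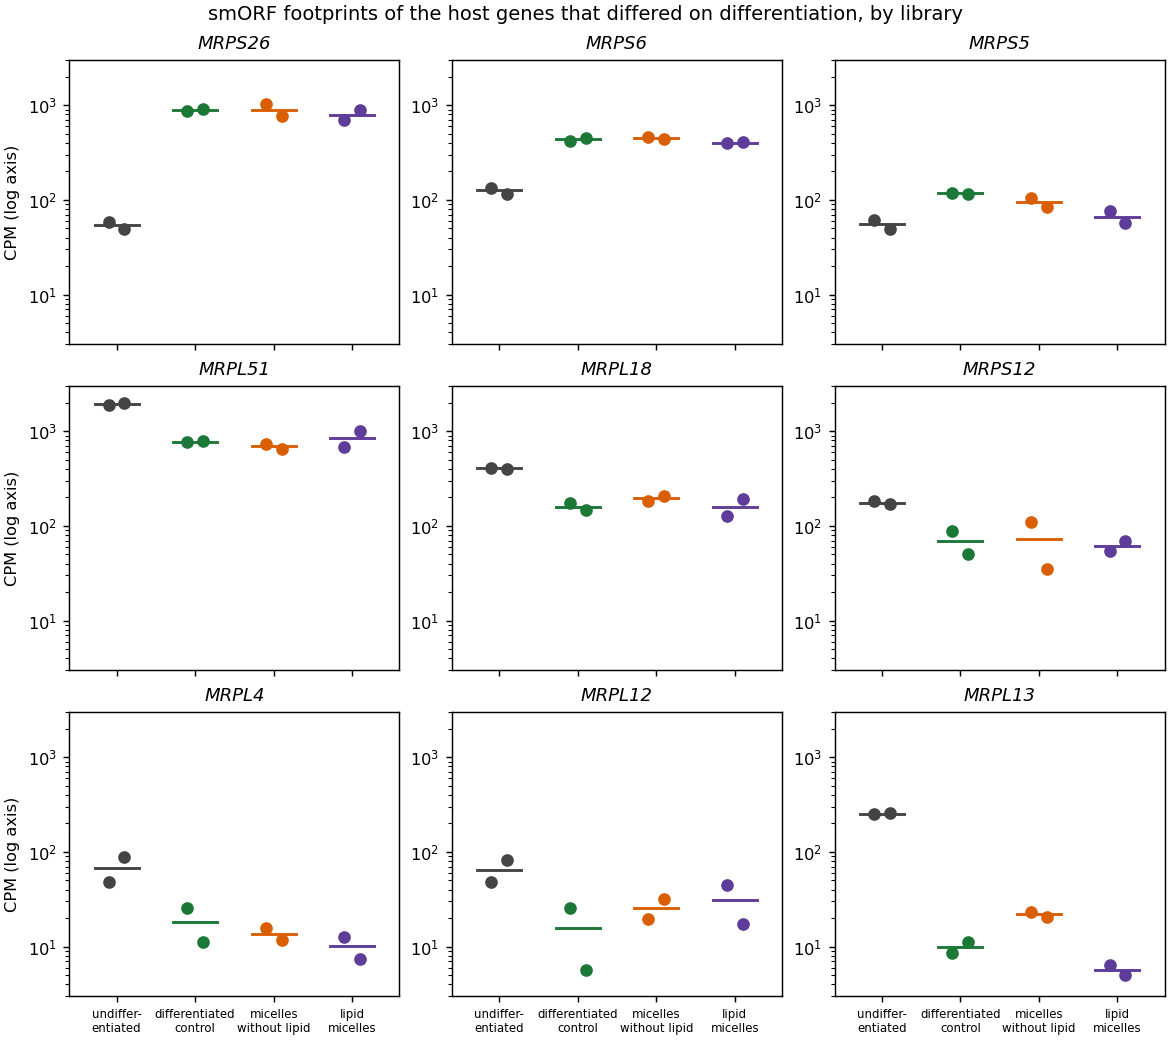
Each panel gives the CPM (log axis) of one of the 9 called host genes in the 8 libraries. Points are libraries, horizontal lines are group means, and groups run from undifferentiated on the left to lipid micelles on the right. MRPS26 lies at 49.6 and 57.8 CPM in undifferentiated cells and at 696 to 1022 CPM in the other 6 libraries, and MRPL13 goes from 251 and 259 CPM to 23.5 CPM or less.

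Of 13 tested large-subunit host genes, 5 fell and 0 rose (median log2 fold change -0.60). MRPL13 and MRPL4 reached 10 counts only in the undifferentiated libraries. They passed the count filter through that group, so they could appear only as falls, and the tally does not measure a direction of the subunit. Of 6 tested small-subunit host genes, 3 rose and 1 fell (median 0.40), where MRPS5 and MRPS6 are the genes whose called smORFs lie in exons of other genes. Among 13 tested members with a bacterial counterpart, 2 rose and 5 fell (median -0.74). Among 6 tested members known only from mitochondria, MRPS26 rose and MRPL51 fell (median 0.37).

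Summed over members, the large subunit went from 4347 and 4348 CPM in the undifferentiated libraries to 2443 and 2191 CPM in the differentiated controls, and the small subunit from 569 and 475 to 1594 and 1682 CPM. In the large subunit, MRPL51 alone made up 1909 and 1977 CPM before and 776 and 784 CPM after. Of its 13 tested host genes, 3 had a log2 fold change above 0. Less MRPS5 and MRPS6, whose called smORFs lie in exons of other genes, the small subunit went from 373 and 308 CPM to 1053 and 1118 CPM, of which MRPS26 made up 865 and 924 CPM. All members together stood at 4916 and 4822 CPM before and at 4037 and 3873 CPM after differentiation. Without MRPS5 and MRPS6 the sums were 4720 and 4656 CPM before and 3495 and 3308 CPM after.

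**Figure D3:**
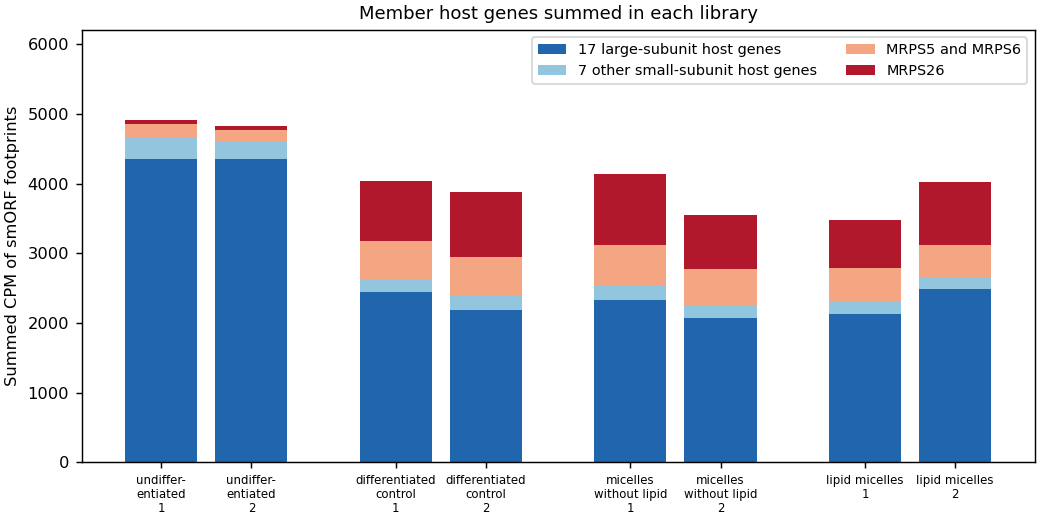
Bars give the summed CPM of the 27 member host genes in each of the 8 libraries, stacked from the large subunit (bottom) to MRPS26 (top). The large-subunit part goes from 4347 and 4348 CPM in undifferentiated cells to 2067 to 2492 CPM in the other 6 libraries, while the MRPS26 part widens.

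The 10 tested members that were not called had log2 fold changes between -0.78 ± 0.48 (MRPL20, edgeR adjusted p = 0.216) and 0.51 ± 0.34 (MRPL48, edgeR adjusted p = 0.246). The closest to a call was MRPL11, with 179 and 173 counts before and 105 and 145 counts after differentiation (-0.48 ± 0.21, edgeR adjusted p = 0.0888). Its CPM values did not overlap between those 2 groups, as in 15 of the 19 tested members and 71.1% of all host genes tested. MRPL30, MRPL33, MRPL37 and MRPS16 did overlap. The 3 uORFs listed under MRPL33 lie in exons of BABAM2 and its dORFs in its own.

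The other 8 members had too few counts to be tested in the table of host genes. MRPL24, MRPL40, MRPL42, MRPL57, MRPS22, MRPS24, MRPS25 and MRPS33 held 0 to 14 counts in a library. MRPS22 held no count in the undifferentiated libraries and 3 and 11 in the differentiated controls. Its mean there was at least 2.16-fold higher than the floor of 3 counts per library. MRPS33 held 3 and 1 counts before and 4 and 11 after differentiation, at least 2.37-fold higher on the same floor. Both means rested mostly on control replicate 2, with 11 counts in each gene, and in replicate 1 MRPS22 was at the floor of 3 counts. Neither difference was tested.

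At the level of single smORFs, 68 of the 95 could be tested in the same comparison. Of these, 6 rose and 17 fell in edgeR's test, or 23 in all. Over all 15182 smORFs tested 33.3% were called, 17.7% as higher and 15.6% as lower, so the member share was close to it. IEC_14712, IEC_21496 and the 3 dORFs of MRPL51 reached 10 counts only in undifferentiated libraries. IEC_04356, IEC_04358 and IEC_04401 did so only in differentiated ones. These passed the count filter through 1 side, which set their direction, so the tally does not measure a direction of the members. The median log2 fold change was -0.39, against 0.01 over all smORFs tested. The 6 that rose belonged to MRPS26, MRPS6 and MRPS5, and the 17 that fell to 7 host genes (MRPL51, MRPL55, MRPL18, MRPL12, MRPL13, MRPL30 and MRPS12). Of 53 uORFs tested, 3 rose and 14 fell. Of 15 dORFs, the 3 of MRPS26 rose and 3 of MRPL51 fell. Of 19 tested smORFs with an ATG start, 4 rose and 4 fell, and of 49 with another start, 2 rose and 13 fell. Those 13 came from 5 host genes and include overlapping smORFs that share footprints. The tallies are thus not of independent members and do not compare locations or start codons.

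**Figure D4:**
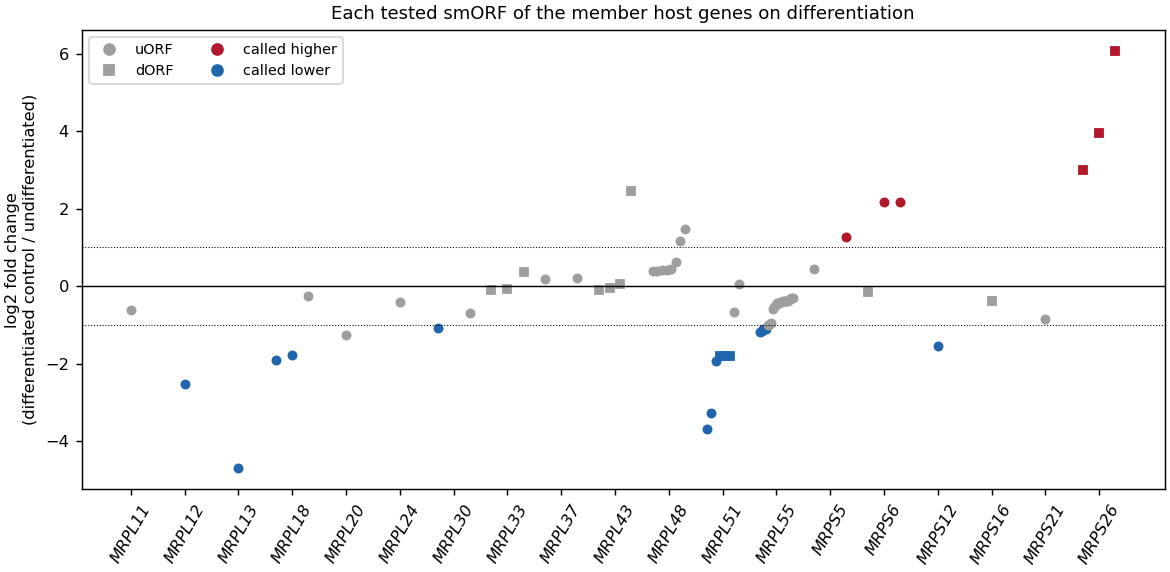
Each symbol is 1 of the 68 tested member smORFs, grouped by host gene, and the y axis is its log2 fold change from undifferentiated to differentiated control cells. Circles are uORFs, squares are dORFs, and dotted lines mark 1 and -1. The 3 dORFs of MRPS26 reach 3.01 to 6.06, and the called falls reach -4.70 (MRPL13).

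The 3 dORFs of MRPS26 rose together. IEC_04357 held 18 and 14 counts in the undifferentiated libraries and 203 and 329 in the differentiated controls (log2 fold change 3.94 ± 0.31, edgeR adjusted p = 8.15e-08). IEC_04356 held 2 and 6 against 31 and 39 (3.01 ± 0.50, edgeR adjusted p = 1.86e-04). IEC_04358 held 0 and 2 against 70 and 87, at least 24.9-fold higher on a floor of 3 counts per library. The 3 were not called under micelles, where IEC_04358 held 90 and 84 counts with micelles without lipid and 76 and 81 with lipid micelles.

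The smORFs of MRPL51 did not all move alike. IEC_13172, the uORF nearest to the 5′ end of the pair printed above, held 339 and 313 counts in the undifferentiated libraries, 72 and 111 in the differentiated controls, 73 and 112 with micelles without lipid and 125 and 249 with lipid micelles. Its CPM fell from 533 and 556 to 141 and 144 (log2 fold change -1.93 ± 0.27, edgeR adjusted p = 3.21e-05). IEC_13171 held 155 and 172 counts before and 81 and 142 after differentiation (-0.67 ± 0.28, edgeR adjusted p = 0.0638) and was not called. As shares of MRPL51 counts, IEC_13172 took 57.1% and 56.1% in the undifferentiated libraries (95% Wilson intervals 53.1 to 61.0% and 51.9 to 60.2%). It took 39.6% and 39.8% in the differentiated controls (32.7 to 46.8% and 34.2 to 45.6%), 38.6% and 50.9% with micelles without lipid, and 57.6% and 61.8% with lipid micelles. The share of IEC_13171 was 26.1% and 30.8% before and 44.5% and 50.9% after differentiation, and 30.4% and 32.5% with lipid micelles. The difference between the uORFs was not tested.

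Farther upstream, IEC_21496 held 21 and 17 counts before and 0 and 3 after differentiation, at least 6.47-fold lower, and IEC_21497 held 48 and 26 against 2 and 6 (-3.27 ± 0.55, edgeR adjusted p = 2.21e-04). Both lie over exons of NCAPD2, a condensin gene on the opposite strand. The strand setting of the counting is not given in the sources used here, so reads of MRPL51 and NCAPD2 cannot be told apart there. The 3 dORFs of MRPL51 begin at the codon right after the main stop codon. They share their start and held the same counts, 11 and 16 before and 5 and 3 after differentiation (-1.80 ± 0.66, edgeR adjusted p = 0.0404).

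In MRPL18, the uORF IEC_03547 printed above held 102 and 91 counts in the undifferentiated libraries, 27 and 27 in the differentiated controls, 24 and 32 with micelles without lipid and 14 and 44 with lipid micelles (differentiated control against undifferentiated -1.90 ± 0.35, edgeR adjusted p = 5.25e-04). Its share of MRPL18 counts was 79.7% and 80.5% before and 65.9% and 51.9% after differentiation. IEC_07401 lies inside IEC_03547 and fell with it (-1.79 ± 0.36). The first MRPL12 uORF, IEC_02531, held 15 and 19 counts before and 5 and 1 after differentiation (-2.52 ± 0.75, edgeR adjusted p = 0.0152), whereas the second, IEC_02532, held 0 to 4 counts in a library and was not tested. In MRPS12, IEC_05023 held 46 and 40 counts before and 19 and 11 after differentiation (-1.55 ± 0.48, edgeR adjusted p = 0.0180). IEC_14712, the MRPL13 uORF, had a log2 fold change of -4.70 ± 0.43.

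MRPL55 and MRPL30 had called smORFs although the host genes were not called. In MRPL55, 5 of 22 tested uORFs fell. They overlap one another, and IEC_16576 held 107 and 91 counts before and 45 and 52 after differentiation (-1.10 ± 0.27, edgeR adjusted p = 0.00466). The host gene value of MRPL55 counted only its longest smORF, IEC_20120, at chr1:228108901-228109260. IEC_16576, at chr1:228108270-228108528, shares no base with it, so its footprints are not in the host gene value. In MRPL30, IEC_06921 held 75 and 39 counts before and 24 and 33 after differentiation (-1.07 ± 0.40, edgeR adjusted p = 0.0437). The uORFs of MRPS6 that rose were IEC_04400 (22 and 16 counts before, 70 and 116 after) and IEC_04401 (3 and 2 before, 10 and 15 after), both in SLC5A3 exons. That of MRPS5 was IEC_19352 (11 and 8 before, 23 and 25 after), in a ZNF514 exon.

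Under micelles without lipid, compared with the differentiated control, no member host gene was called by edgeR or DESeq2, where 0.0414% of all host genes tested were called. At an unadjusted p under 0.05, 2 members passed in edgeR and 1 in DESeq2. In edgeR 239 of all 4830 host genes tested passed. MRPL11 had the lowest log2 fold change, -0.65 ± 0.22 (edgeR adjusted p = 0.822), with 448 and 407 CPM in the controls and 231 and 308 CPM with micelles without lipid. MRPL20 had the highest, 1.12 ± 0.47 (edgeR adjusted p = 0.957), with 21.3 and 33.7 CPM against 66.6 and 58.6 CPM. Neither pair of groups overlapped, as in 8 of the 19 tested members and 32.6% of all host genes tested. MRPS26 had a log2 fold change of 0.00 ± 0.22. The median over the 19 members was 0.03, against -0.002 over all host genes tested. Among member smORFs edgeR and DESeq2 again called none (0% of all smORFs in edgeR), with 2 at an unadjusted p under 0.05 in edgeR and 0 in DESeq2.

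Under lipid micelles, compared with the differentiated control, neither tool called a member, and edgeR called 0% of all host genes and 0% of all smORFs tested. At an unadjusted p under 0.05, 1 member host gene passed in edgeR and 0 in DESeq2, and 3 and 2 member smORFs. In edgeR 233 of all 4830 host genes tested passed. MRPS5 had the lowest log2 fold change, -0.82 ± 0.32 (edgeR adjusted p = 0.933), with 119 and 115 CPM in the controls and 75.9 and 57.3 CPM under lipid micelles. MRPL12 had the highest, 1.08 ± 0.73, with 25.6 and 5.6 CPM against 44.3 and 17.4 CPM, which overlapped. The MRPL51 smORF with most counts, IEC_13172, stood at 141 and 144 CPM in the controls and 186 and 290 CPM under lipid micelles (0.74 ± 0.26, edgeR adjusted p = 0.957). The median over the 19 members was -0.12, against -0.01.

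The last comparison set lipid micelles against micelles without lipid, which by their labels differ in BSA as well as in oleic acid and cholesterol. No member was called by either tool, and edgeR called 0% of host genes and 0% of smORFs. At an unadjusted p under 0.05, 2 member host genes passed in edgeR and 1 in DESeq2, and 8 and 2 member smORFs. In edgeR 196 of all 4830 host genes tested passed. Overlapping smORFs share footprints, so the smORF counts are not of independent members. MRPL48 had the highest log2 fold change, 0.86 ± 0.32 (edgeR adjusted p = 0.989), with 19 and 31 counts under micelles without lipid and 56 and 51 under lipid micelles (74.4 and 90.8 against 177 and 127 CPM). Its 8 uORFs overlap and had log2 fold changes of 0.60 to 0.89. MRPL13 had the lowest fitted value, -1.89 ± 0.63 (edgeR adjusted p = 0.989), on 6 and 7 against 2 and 2 counts, at least 2.60-fold lower on the floor of 3 counts per library. The median over the 19 members was -0.15, against -0.02 over all host genes tested.

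**Figure D5:**
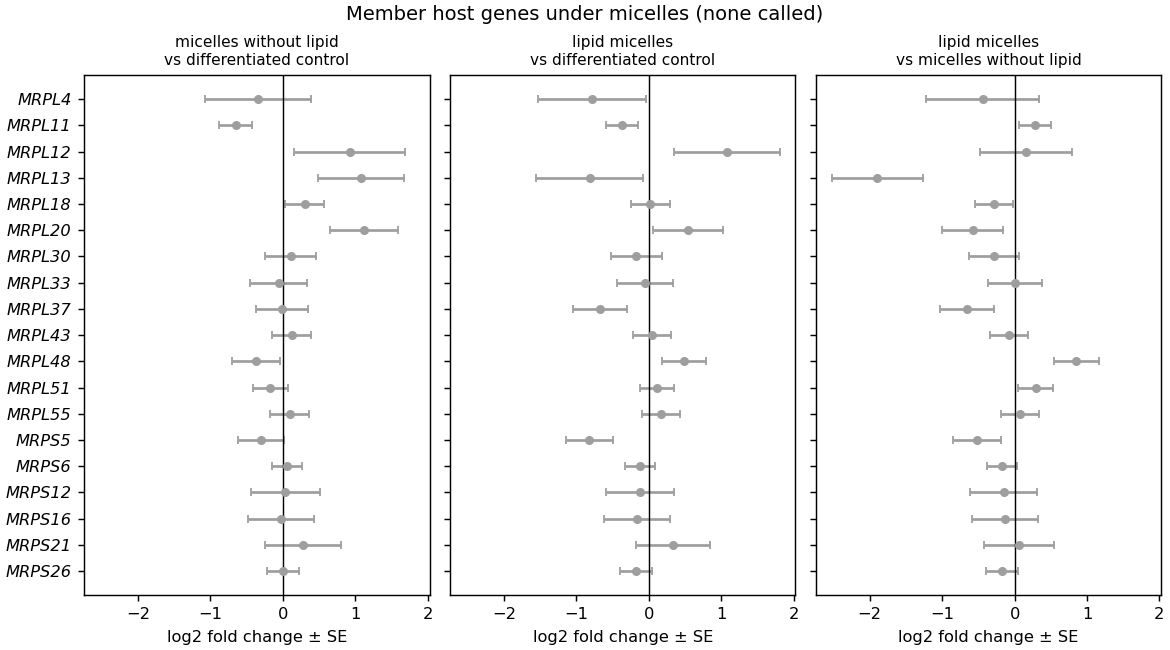
The 3 panels give the log2 fold change ± SE of the 19 tested member host genes in the comparisons between differentiated groups, which share libraries. None was called. MRPL20 reaches 1.12 in the left panel and MRPL13 reaches -1.89 in the right panel.

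Genes that work with the mitochondrial ribosome were taken from a list of 67, of which 27 had a smORF and 19 passed the count filter. The values here are for the change on differentiation. RARS2 and NARS2 charge mitochondrial transfer RNAs with arginine and asparagine. RARS2 rose, with 49 and 47 counts before and 145 and 284 after (log2 fold change 2.13 ± 0.28, edgeR adjusted p = 4.31e-05). NARS2 fell from 98 and 110 to 40 and 61 (-1.04 ± 0.24, edgeR adjusted p = 0.00354). DAP3, a small-subunit protein with another symbol, fell from 75 and 42 to 15 and 31 counts (-1.34 ± 0.34, edgeR adjusted p = 0.00604). The median of the 19 was -0.53. Of 9 transcription regulators of nuclear genes for mitochondrial proteins, 2 could be tested. GABPA, the DNA-binding subunit of an ETS-family regulator, fell from 62 and 48 to 18 and 28 counts (-1.24 ± 0.31, edgeR adjusted p = 0.00560). Its partner GABPB1 had a log2 fold change of 0.55 ± 0.40 and was not called.

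Promoter sequences of RefSeq on GRCh38.p14, from 250 bases before to 50 after the gene start, matched 26 of the 27 members. The ETS letters CCGGAAG, searched on both strands, stood in 14 of the 26 (53.8%), against 21.9% of 5594 host genes and 12.2% of 27305 genes in all. MRPS26, MRPL51, MRPL18 and MRPS12 were among the 14, MRPL13, MRPL12 and MRPL4 were not. The YY1 letters AAGATGGC stood in 5 of 26 (19.2%), against 5.58% of host genes and 3.52% of genes in all. MRPL51 and MRPL20 are among the 5. Their uORF starts printed above, IEC_13171 and IEC_15935, hold the same letters 24 and 18 bases from the transcript start. This share may thus rest partly on the same bases as the AAGATGG starts and is not separate from them. The NRF1 letters GCATGCGC stood in none of the 26, against 6.44% of host genes and 3.68% in all. Motif windows can overlap, and a match is a description of letters.

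The most similar parts of the smORF set are the host genes of the cytosolic ribosome and of oxidative phosphorylation. Between differentiated control and undifferentiated cells, 6 of 49 tested cytosolic ribosomal protein host genes rose and 8 fell (28.6% called, median log2 fold change -0.40). Of 32 tested oxidative phosphorylation host genes, 1 rose and 6 fell (21.9% called, median -0.35). The mitochondrial ribosome host genes stood at 47.4% called and a median of -0.48. Without MRPS5 and MRPS6, whose called smORFs lie in exons of other genes, they stood at 41.2% called and a median of -0.60. No test of these differences was made.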

How the data were processed

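Ribosome footprints were measured in 8 libraries of Caco-2 cells. The authors aligned reads to hg38 with STAR (version 2.7.11a per the labels), assembled transcripts, and kept reading frames of at most 150 codons with a RibORF score of at least 0.7 across several cell lines. They deposited raw counts per smORF made with HOMER. The strand, exon and multi-mapping settings are not given in the sources used here. The deposited annotation table holds the RibORF score and mean PhyloCSF score, whose version is not given in the sources used here.

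Counts of 1 smORF per group of overlapping smORFs (the longest) were summed per host gene. Both tables were fitted whole with edgeR 4.0.16 (R 4.3.3): TMM normalization, filterByExpr, quasi-likelihood F test over the 4 groups, Benjamini-Hochberg adjustment. DESeq2 1.42.0 was an alternative. CPM uses TMM library sizes. Scripts were tested on simulated data. The members and lists were chosen with earlier results of these data known. Named are the called members, the 5 MRPL and 5 MRPS with the highest mean CPM per kb, the highest and lowest log2 fold change under each micelle comparison, called smORFs and called list genes, of which 1 is not reported here. With 2 libraries against 2, an exact two-sided permutation test cannot go below p = 0.3333, so none was run. Sequences come from GENCODE 44 transcripts.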

Additional observations from a re-analysis of the deposited data

How the results depend on the processing

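Alternatives were DESeq2, other normalizations, other low-count filters, other ways of summing smORFs, leaving out each library, and the replicate number as a block. 2 were chosen after seeing the data: leaving out smORFs that overlap other annotation, and leaving out smORFs outside the exons of their own host gene. Between differentiated control and undifferentiated cells, 9 member host genes were called, and 5 to 9 with 1 library left out (5 without control replicate 2). For single smORFs the 23 calls became 13 to 25 with 1 library left out (13 without control replicate 2), 11 of 44 with 10 counts required in every library and 12 of 30 with 1 smORF per overlap cluster, where fewer were tested. MRPS6 reversed to -0.0463 (log2) when smORFs outside its exons were left out. The calls of MRPL12, MRPL4, MRPS12 and MRPS5 were lost as given above, and the cause was not tested. In DESeq2 3301 rather than 5060 smORFs of the whole table were called, and 4 rather than 2 host genes under micelles without lipid. Deviations of same-numbered replicates had r = -0.0835, 0.0376 and 0.037 between the undifferentiated and the other groups, and 0.2014, 0.1297 and 0.1135 among the differentiated groups (4830 host genes, which are not independent). The labels give no reason for a pairing, and each comparison has only 2 pairs, so the number was not taken to pair samples. With the replicate block no member host gene changed its call, and 24 rather than 23 member smORFs were called (IEC_20935 of MRPL43 was added). Host genes of the whole table called under micelles without lipid went from 2 to 18, and between lipid micelles and micelles without lipid from 0 to 8. Whole-table smORF calls in these comparisons went from 0 to 15 and from 0 to 3. With the block and the differentiated libraries alone, host gene calls were 23, 4 and 20 in the 3 micelle comparisons, and no member was among them. Low counts limit the 8 members untested as host genes. For MRPL24 they also reflect the choice of the longest smORF, IEC_18257, with 22 counts in all. The overlapping IEC_16680 held 55, and 1 smORF of MRPL24 was tested in the table of smORFs.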
